A study of Mus musculus with 9 samples.

Results

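The genes described here are 10 enzymes of glycolysis, namely the hexokinases Hk1, Hk2 and Hk3, glucose-6-phosphate isomerase Gpi1, the phosphofructokinases Pfkl and Pfkp, aldolase Aldoa, phosphoglycerate kinase Pgk1, pyruvate kinase Pkm and lactate dehydrogenase Ldha. They were chosen by symbol, and all 10 were found among the 14862 genes of the deposited expression table. RNA had been sequenced from splenic dendritic cells of C57Bl/6 mice aged 8 to 12 weeks, with no treatment or genetic change given in the labels. The cells had been sorted into 3 subsets with 3 libraries each: cDC1, the conventional dendritic cells specialised in cross-presentation to CD8 T cells, cDC2, the conventional dendritic cells that prime chiefly CD4 T cells, and mcDC. The abbreviation mcDC is used in the field for merocytic dendritic cells and is not spelled out in the labels, nor are the sort markers given. Values are RPKM, read counts scaled by gene length and library total, so levels can be set beside each other between genes as well as between libraries. Scaling by the total does not correct for differences in composition between libraries, and a shift of mcDC under another scaling is described below. Whether replicates are separate animals or pools is not stated, so p-values reflect the spread among these libraries only, some of which may be technical.

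Glycolysis converts glucose to pyruvate in the cytosol. Hexokinase traps glucose as glucose 6-phosphate, phosphofructokinase commits the sugar to breakdown, the later enzymes yield ATP and NADH, and lactate dehydrogenase regenerates NAD+ by reducing pyruvate to lactate. Several steps are run by isozymes from different genes that differ in tissue distribution and regulation. Dendritic cells are known to raise glycolysis on activation through Toll-like receptors, and the cells here carry no label of activation. Many genes of the pathway are known targets of hypoxia-inducible factor 1 and MYC. RNA levels do not measure enzyme amount or flux.

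The members with the largest differences between subsets were isozymes of hexokinase and phosphofructokinase. Hk3 was 8.01-fold higher in cDC1 than in cDC2, Pfkp 2.49-fold and Pgk1 1.73-fold, and these were the 3 of 10 members that passed an adjusted p threshold of 0.05 (limma, Benjamini-Hochberg adjustment over 11971 genes). No member was lower in cDC1 by that test. Of all genes tested, 19.6% passed in this comparison, 8.85% higher and 10.7% lower in cDC1. In mcDC against cDC1, Hk3 was lower and Hk2 higher, which is 2 of 10 members where 15.4% of all genes passed, 9.53% higher and 5.88% lower in mcDC. In mcDC against cDC2, 0 of 10 members passed with limma, where 3.66% of all genes did (2.06% higher and 1.6% lower in mcDC), and 1 member, Pfkp, had an unadjusted p under 0.05. Voom on recovered reads, a weighted form of limma, also called 0 members there. With the title run, described below, as a block, Hk1 also passed in cDC1 against cDC2, Pgk1 in mcDC against cDC1 and Pfkp in mcDC against cDC2. That fit called 2942, 2474 and 773 of 11971 genes in these comparisons. The median log2 difference over the members was 0.16 in cDC1 against cDC2, -0.06 in mcDC against cDC1 and 0.14 in mcDC against cDC2, beside -0.02, 0.09 and 0.06 over all genes tested. The comparisons share libraries and are not independent of each other.

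The libraries held 5.14 M to 12.4 M reads, as recovered from the steps between RPKM values, and mcDC replicate 3 stood apart as the shallowest, with 12.3% of genes at 0 against 2.71% to 6.47% in the others. The members had 134 to 7516 reads each in a library. Without mcDC replicate 3, 6 members passed in cDC1 against cDC2, namely the same 3 higher and Hk1, Hk2 and Pkm lower, while 29.4% of all genes passed. Without it only Hk3 passed in mcDC against cDC1, where 22.0% of genes did, and 0 members passed in mcDC against cDC2, where 4.37% did. Of 9 markers of cDC1, among them Xcr1 and Clec9a, 8 were higher in cDC1 than in cDC2, and of 9 markers of cDC2, 8 were lower. In mcDC the summed RPKM of the cDC1 markers was 540 to 1142, between 226 to 309 in cDC2 and 1864 to 2258 in cDC1. No marker of either list was at 0 in all libraries. In these sorted pools, fewer cells of a type and less RNA per cell cannot be told apart.

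The 3 promoters that follow belong to isozymes that passed in opposite directions relative to cDC1: Hk3 and Pfkp, higher in cDC1 than in cDC2, and Hk2, higher in mcDC than in cDC1. Each is the 250 bases before the annotated start on the gene's own strand, from RefSeq on GRCm38.p6, and RefSeq promoters were found for 10 of 10 members. Capitals mark ACGTG and GCGTG, the cores bound by hypoxia-inducible factors, and GGGCGG, the GC box of Sp1 and related factors, each on either strand, so that CACGT and CCGCCC are reverse complements. Where matches overlap, the capitals run on.
Hk3, chr13:55021386-55021635, minus strand: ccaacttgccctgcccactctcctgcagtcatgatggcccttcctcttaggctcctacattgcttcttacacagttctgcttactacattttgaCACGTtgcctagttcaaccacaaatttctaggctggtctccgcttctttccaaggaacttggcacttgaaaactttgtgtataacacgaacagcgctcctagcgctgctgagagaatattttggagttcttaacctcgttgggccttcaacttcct
Pfkp, chr13:6648772-6649021, minus strand: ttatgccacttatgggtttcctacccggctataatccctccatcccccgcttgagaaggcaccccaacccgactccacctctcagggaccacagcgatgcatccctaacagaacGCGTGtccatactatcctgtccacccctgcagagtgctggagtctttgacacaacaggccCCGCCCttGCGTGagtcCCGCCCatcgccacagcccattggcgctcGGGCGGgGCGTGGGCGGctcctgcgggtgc
Hk2, chr6:82774455-82774704, minus strand: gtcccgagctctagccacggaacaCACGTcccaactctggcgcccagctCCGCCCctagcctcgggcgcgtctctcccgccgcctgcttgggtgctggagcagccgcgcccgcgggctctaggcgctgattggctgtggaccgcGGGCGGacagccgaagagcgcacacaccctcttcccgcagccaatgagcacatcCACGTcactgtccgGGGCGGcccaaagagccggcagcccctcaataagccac
The Hk3 window held 1 ACGTG and no GC box, at a GC content of 47.2%. The Pfkp window held 3 GCGTG and 4 GGGCGG at 62.8% GC, and the Hk2 window 2 ACGTG and 3 GGGCGG at 69.6% GC. Of all 32851 promoters of the same length, 38.6% held ACGTG or GCGTG and 32.7% held GGGCGG. Some members have several starts, and of the 15 windows of all members 11 held a core of either kind and 8 held a GC box. Aldoa windows 2 and 3 overlap, so matches that they share are counted in both. CACGTG, the E-box bound by MYC with MAX, was found in 1 member, Ldha, and in 6.02% of all promoters. These matches describe the letters in the windows and are not evidence of binding.

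Levels within a subset spanned the pathway steeply, with the enzymes from Gpi1 onwards, apart from phosphofructokinase, well above the hexokinases. In cDC1 the order of mean RPKM was Ldha, Pkm, Gpi1, Pgk1, Aldoa, Hk3, Pfkp, Pfkl, Hk2 and Hk1. In cDC2 it was Pkm, Gpi1, Ldha, Aldoa, Pgk1, Hk2, Hk1, Pfkl, Pfkp and Hk3, and in mcDC Ldha, Pkm, Gpi1, Aldoa, Pgk1, Pfkp, Hk2, Pfkl, Hk1 and Hk3. Hk3 thus stood at place 6 in cDC1 and at place 10 in cDC2 and mcDC. Neighbours whose order changed between libraries of a subset, so that it is not resolved, were Gpi1 with Ldha, Hk1 with Pfkl and Pfkl with Pfkp in cDC2. In mcDC they were Ldha with Pkm, Pfkp with Hk2 and Hk1 with Hk3. All other neighbours kept their order in each library, though in cDC1 replicate 1 Pgk1 and Aldoa were both at 112 RPKM. Aldoa, Pgk1, Pkm, Ldha and the neighbouring enzyme Gapdh have processed pseudogenes, and how the authors' counting placed shared reads is not given in the sources used here.

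**Figure D1:**
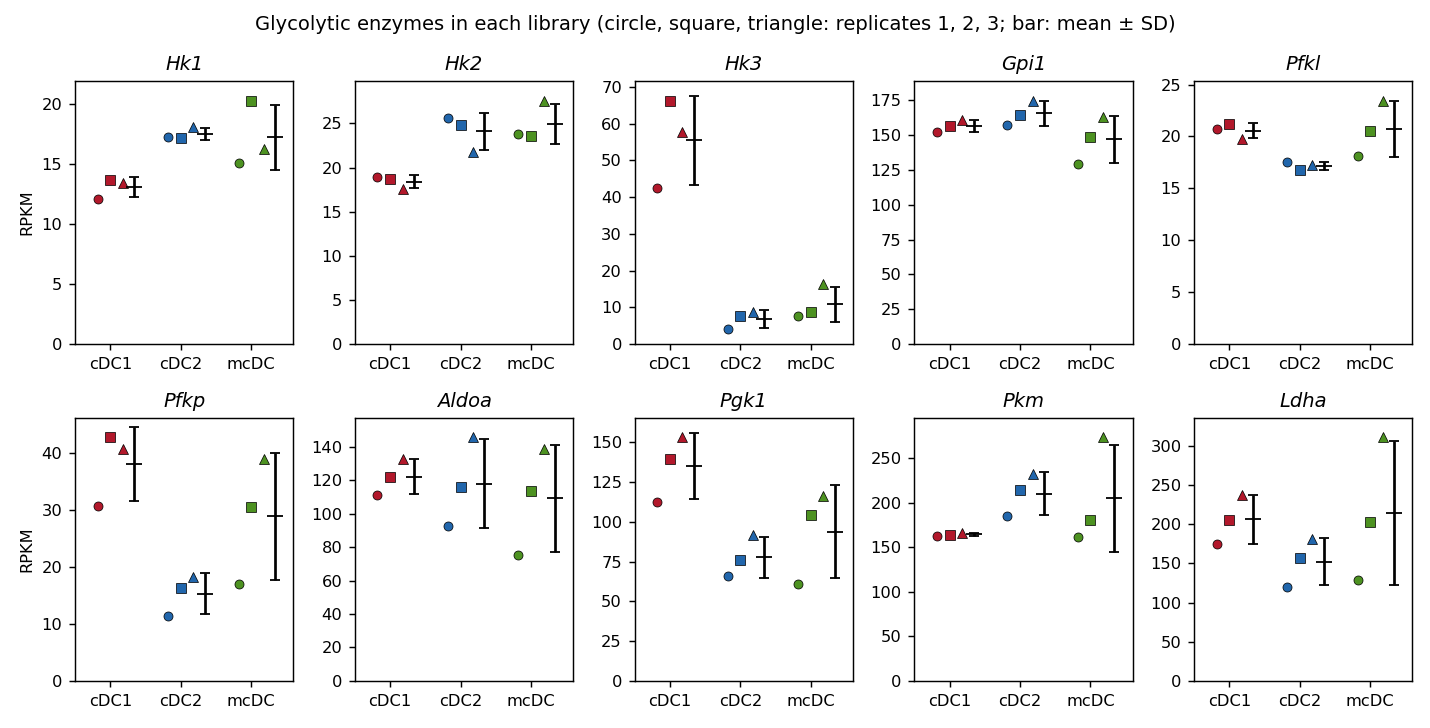
RPKM (vertical axes, from 0) of the 10 members in each library of cDC1, cDC2 and mcDC (horizontal axes). Circles, squares and triangles are replicates 1, 2 and 3, and black bars are mean ± SD of 3 libraries. Hk3 lies between 42.5 and 66.3 in cDC1 and between 4.25 and 16.3 elsewhere.

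Hk3 gave the largest log2 difference of all members. Hk3, a hexokinase found mainly in blood cells that lacks the mitochondrial binding segment of Hk1 and Hk2, had 42.5, 66.3 and 57.7 RPKM in cDC1, 4.25, 7.71 and 8.81 in cDC2, with 7.57, 8.80 and 16.3 in mcDC, for replicates 1, 2 and 3. All 3 cDC1 libraries lay above all 6 others, while cDC2 and mcDC overlapped. The means were 55.5 ± 12.1 (SD, n = 3) in cDC1, 6.92 ± 2.38 in cDC2 and 10.9 ± 4.73 in mcDC. On the log2(RPKM + 1) scale Hk3 was 2.86 ± 0.31 (SE) higher in cDC1 than in cDC2 (limma, adjusted p = 0.00019) and 2.29 ± 0.31 lower in mcDC than in cDC1, a difference of -2.29 (adjusted p = 0.0012). It kept both calls under each of 19 other settings. The difference between mcDC and cDC2 was 0.57 with a 95% interval of -0.14 to 1.27 (limma, adjusted p = 0.41). Within the libraries of the same title run, described below, the ratio of cDC1 to cDC2 was 8.59 and 6.55 in the second and the third run and larger than either in the first.

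Markers of other cells were measured beside Hk3. Neutrophil markers had a summed RPKM of 15.0 to 48.9 in cDC1 and 197 to 1710 in cDC2. By limma 10 of 13 were lower in cDC1, and voom called 5. Of 6 plasmacytoid dendritic cell markers, 3 were higher and 0 lower in cDC1 than in cDC2, and 2 were lower in mcDC than in cDC1. Their summed RPKM was 93.8 to 156 in cDC1, 59.3 to 94.9 in cDC2 and 104 to 204 in mcDC. In cDC1 against cDC2, 2 of 7 T cell markers were higher and 1 lower. Of 6 B cell markers 1 was higher and 2 lower, and of 15 monocyte and macrophage markers 1 and 7. In mcDC the library with the highest Hk3, replicate 3, also had the highest mean log2 level of the 9 cDC1 markers, 5.51 against 4.52 and 5.11 in replicates 1 and 2. In cDC1 the library with the lowest Hk3, replicate 1, had the highest mean log2 level of the 9 cDC2 markers, 3.58 against 2.39 and 2.47. Hk3 was lowest in replicate 1 of cDC2 and of mcDC as well. In replicates 1, 2 and 3 the cDC2 markers were there at 5.72, 5.75 and 5.70 in cDC2 and at 5.11, 4.76 and 4.41 in mcDC. The part of these cells in the level of Hk3 was not tested.

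Hk1, the widely expressed hexokinase, had 12.1, 13.7 and 13.4 RPKM in cDC1, 17.3, 17.2 and 18.1 in cDC2, with 15.1, 20.3 and 16.3 in mcDC. Its cDC1 libraries lay below all others, at a mean of 13.1 ± 0.84 against 17.5 ± 0.50 in cDC2 and 17.2 ± 2.72 in mcDC (SD, n = 3). The difference from cDC2 was -0.39 ± 0.13 (SE) on the log2 scale and missed the threshold (limma, adjusted p = 0.072), with 0.040 when mcDC replicate 3 was left out. The difference of mcDC from cDC1 was 0.36 with an adjusted p of 0.10 by limma.

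Hk2, the hexokinase that is induced by growth signals and hypoxia, had 19.0, 18.7 and 17.6 RPKM in cDC1, 25.7, 24.9 and 21.7 in cDC2, with 23.8, 23.5 and 27.6 in mcDC. As for Hk1, the cDC1 libraries were the 3 lowest. Hk2 was 0.42 ± 0.12 (SE) higher in mcDC than in cDC1 on the log2 scale (limma, adjusted p = 0.041), from means of 25.0 ± 2.27 and 18.4 ± 0.73 (SD, n = 3). That call was kept in 5 of 19 other settings, whose adjusted p ran from 0.036 to 0.14 and was 0.10 with quantile normalization, 0.14 with median-of-ratios scaling, 0.14 with voom and 0.0503 without mcDC replicate 3. Against cDC2, at 24.1 ± 2.08, the difference of cDC1 was -0.37 ± 0.12 (limma, adjusted p = 0.057), and 0.020 without mcDC replicate 3.

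The 3 hexokinases together had 87.0 ± 12.7 RPKM in cDC1, 48.5 ± 1.30 in cDC2 and 53.1 ± 6.84 in mcDC (SD, n = 3). Hk3 made up 57.7%, 67.1% and 65.0% of this sum in the cDC1 libraries, 9.003%, 15.5% and 18.1% in cDC2, and 16.3%, 16.7% and 27.1% in mcDC. Hk2 was the leading hexokinase outside cDC1, with 49.7% ± 4.87 in cDC2 and 47.2% ± 3.46 in mcDC against 21.5% ± 3.71 in cDC1. Hk1 held 36.1% ± 1.40, 32.7% ± 5.77 and 15.2% ± 1.30 of the sum in the same order. For all 3 isozymes the shares in cDC1 did not overlap those in either other subset. The exact two-sided permutation test gave p = 0.1 for each, the smallest value that 3 against 3 libraries allow, and 0.27 after adjustment over 27 tests of shares, so no share could pass.

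**Figure D2:**
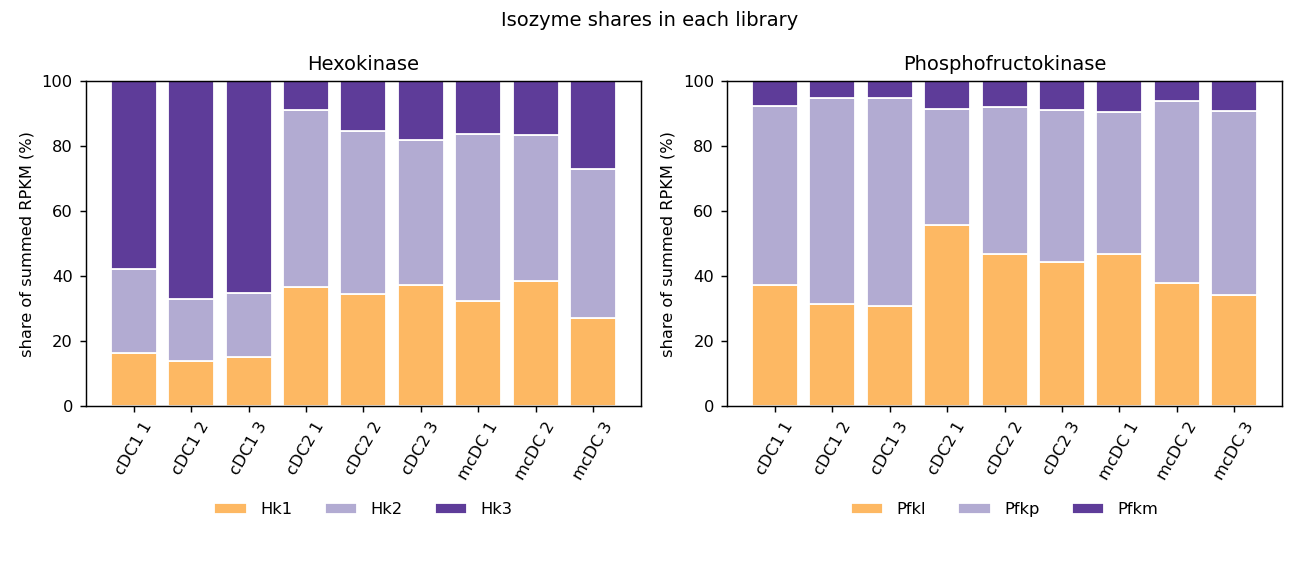
Share of summed RPKM (%, vertical axis) held by each hexokinase (left) and each phosphofructokinase (right) in each of the 9 libraries, as stacked bars. Hk3 takes 57.7% to 67.1% of hexokinase RPKM in cDC1 and 9.003% to 27.1% in cDC2 and mcDC, and Pfkp 55.2% to 63.7% of phosphofructokinase RPKM in cDC1 and 35.9% to 46.9% in cDC2.

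Gpi1, which turns glucose 6-phosphate into fructose 6-phosphate, passed in no comparison. It had 152, 157 and 161 RPKM in cDC1, 157, 164 and 175 in cDC2, with 129, 148 and 163 in mcDC. The libraries of all subsets overlapped. The 95% interval of the log2 difference was -0.33 to 0.18 in cDC1 against cDC2, -0.35 to 0.16 in mcDC against cDC1 and -0.43 to 0.08 in mcDC against cDC2.

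Phosphofructokinase, the main control point of the pathway, also differed by isozyme. Pfkp, the platelet-type gene, had 30.7, 42.8 and 40.7 RPKM in cDC1, 11.3, 16.3 and 18.3 in cDC2, with 17.0, 30.6 and 39.0 in mcDC. The cDC1 and cDC2 libraries did not overlap, and mcDC spread over the gap between them and into both. Pfkp was 1.27 ± 0.29 (SE) higher in cDC1 than in cDC2 on the log2 scale (limma, adjusted p = 0.012), at means of 38.0 ± 6.43 and 15.3 ± 3.59 RPKM (SD, n = 3). It missed the threshold without cDC1 replicate 2 or 3, at adjusted p = 0.055 and 0.0501. Within title runs the ratio of cDC1 to cDC2 was 2.71, 2.62 and 2.22. In mcDC, at 28.9 ± 11.1, Pfkp differed from cDC2 by 0.82 with a 95% interval of 0.17 to 1.47 (limma, adjusted p = 0.17, and 0.021 without mcDC replicate 1). The difference between mcDC and cDC1 was -0.45, with an interval of -1.10 to 0.20.

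Pfkl, the liver-type gene, had 20.7, 21.2 and 19.8 RPKM in cDC1, 17.5, 16.8 and 17.3 in cDC2, with 18.1, 20.5 and 23.5 in mcDC. The cDC2 libraries were the 3 lowest, but neither difference from cDC2 passed, at 0.24 for cDC1 (limma, adjusted p = 0.22) and 0.25 for mcDC (adjusted p = 0.34). The muscle-type gene Pfkm was low, at 3.70 ± 0.45, 2.99 ± 0.41 and 4.44 ± 1.68 RPKM in cDC1, cDC2 and mcDC (SD, n = 3). Of the summed phosphofructokinase RPKM, Pfkp held 60.8% ± 4.83 in cDC1, 42.7% ± 5.92 in cDC2 and 52.2% ± 7.32 in mcDC, and Pfkl 33.2% ± 3.48, 48.9% ± 5.97 and 39.5% ± 6.47. For both genes the shares in cDC1 and cDC2 did not overlap, again at the smallest possible exact permutation p of 0.1. The sum was 62.3 ± 6.04 RPKM in cDC1, 35.5 ± 3.78 in cDC2 and 54.0 ± 15.0 in mcDC.

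Aldoa, which splits fructose 1,6-bisphosphate, had 112, 122 and 133 RPKM in cDC1, 92.5, 116 and 146 in cDC2, with 75.1, 114 and 139 in mcDC. All subsets overlapped, and the log2 difference between cDC1 and cDC2 was 0.07 with a 95% interval of -0.45 to 0.59. Aldoa held 92.5% to 96.8% of aldolase RPKM in every library, the rest being Aldoc.

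Pgk1, the enzyme of the ATP-yielding step after glyceraldehyde-3-phosphate dehydrogenase, had 112, 139 and 153 RPKM in cDC1, 65.8, 76.2 and 91.5 in cDC2, with 60.7, 104 and 116 in mcDC. The cDC1 and cDC2 libraries did not overlap. The difference was 0.79 ± 0.24 (SE) on the log2 scale (limma, adjusted p = 0.047), from means of 135 ± 20.9 and 77.8 ± 12.9 (SD, n = 3). The call lay close to the threshold. It was kept in 9 of 19 other settings, with adjusted p from 0.0014 to 0.16, and was lost without any 1 of the 6 cDC1 and cDC2 libraries or without mcDC replicate 2. The ratio of cDC1 to cDC2 within title runs was 1.71, 1.83 and 1.67. In mcDC Pgk1 was at 93.8 ± 29.3, a log2 difference of -0.56 from cDC1 (limma, adjusted p = 0.16) and of 0.23 from cDC2 (adjusted p = 0.68). The ratio of mcDC to cDC1 within title runs was 0.54, 0.75 and 0.76.

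Pkm, which yields ATP and pyruvate, had 163, 164 and 167 RPKM in cDC1, 185, 214 and 232 in cDC2, with 161, 180 and 274 in mcDC. The cDC1 libraries lay close together and below those of cDC2, but the log2 difference of -0.35 ± 0.19 (SE) did not pass (limma, adjusted p = 0.26, and 0.040 without mcDC replicate 3). The table gives 1 value for the gene, so the M1 and M2 forms that arise from it by splicing cannot be told apart. Pkm held 97.9% to 100% of pyruvate kinase RPKM, the rest being Pklr.

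Ldha, the lactate dehydrogenase subunit that favours lactate formation, had the largest SD of the members within mcDC, 92.0 RPKM around a mean of 214. It had 176, 205 and 238 RPKM in cDC1, 120, 156 and 181 in cDC2, with 128, 203 and 311 in mcDC. All subsets overlapped. The log2 difference between cDC1 and cDC2 was 0.44 with a 95% interval of -0.21 to 1.09 (limma, adjusted p = 0.37), and between mcDC and cDC2 it was 0.42 with an interval of -0.24 to 1.07. Ldha held 96.6% to 99.8% of the RPKM of Ldha and Ldhb, and Ldhb, which encodes the other subunit, had 1.68 ± 0.69, 2.13 ± 0.69 and 2.38 ± 1.95 RPKM in cDC1, cDC2 and mcDC (SD, n = 3).

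Counted over the members, the libraries of cDC1 and cDC2 did not overlap for 7 of 10, where 46.1% of all genes tested did not overlap. Higher in cDC1 were Hk3, Pfkl, Pfkp and Pgk1, and lower were Hk1, Hk2 and Pkm. In mcDC against cDC1 the libraries did not overlap for 3 members, the hexokinases, beside 30.5% of all genes, and in mcDC against cDC2 for 1, Pfkl, beside 21.6%. In mcDC against cDC1, 61.8% of all called genes were higher in mcDC, and 46.4% with median-of-ratios scaling, which moved the median log2 difference of all genes from 0.09 to -0.03. In mcDC against cDC2 these shares were 56.4% and 42.3%. The small differences of mcDC from cDC1 are to be read against that shift.

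**Figure D3:**
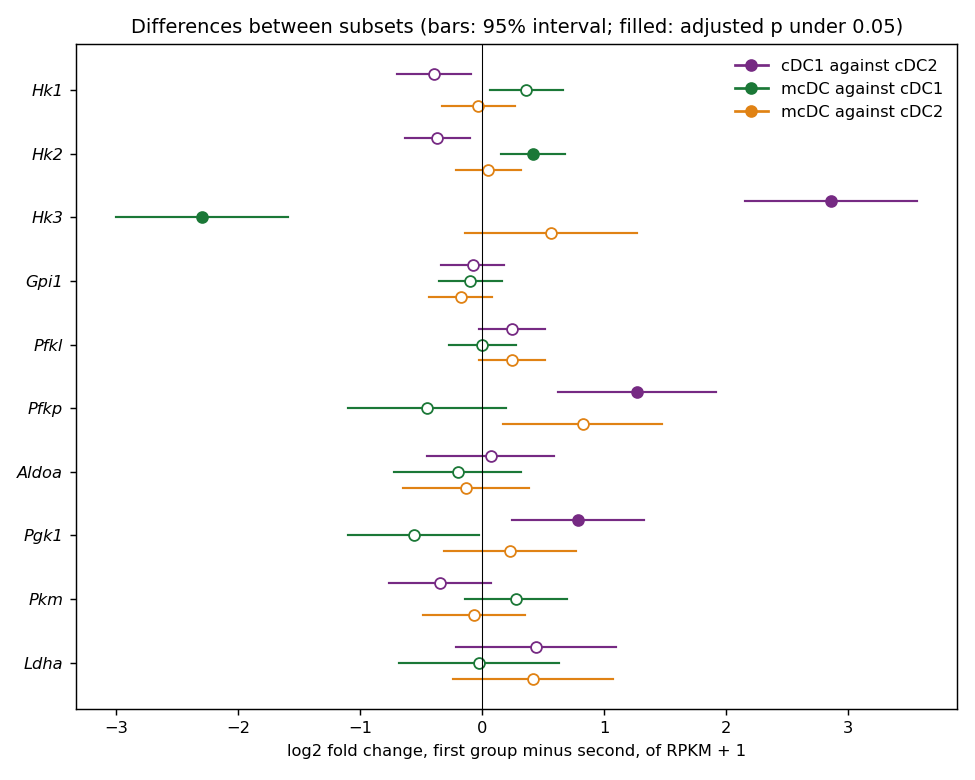
Log2 fold change of RPKM + 1, first group minus second (horizontal axis), for the 10 members (vertical axis) in 3 comparisons by colour. Bars are 95% intervals, and filled circles mark adjusted p under 0.05 by limma, which are Hk3, Pfkp and Pgk1 in cDC1 against cDC2 and Hk3 and Hk2 in mcDC against cDC1.

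Several members moved together between libraries of the same subset. The library titles run in consecutive numbers, and each run of 3 titles holds 1 library of each subset, and nothing in the labels tells what the libraries of a run have in common. In all 3 subsets the library of the first run was the lowest for 7 of 10 members (Hk3, Gpi1, Pfkp, Aldoa, Pgk1, Pkm and Ldha), where this held for 12.0% of all genes tested. For 5 of them, Gpi1, Aldoa, Pgk1, Pkm and Ldha, the last run was also the highest in all 3 subsets, which held for 5.08% of all genes. The ratio of the last to the first run for Ldha was 1.35 in cDC1, 1.504 in cDC2 and 2.43 in mcDC, and for Pgk1 it was 1.37, 1.39 and 1.92. Hk2 had no such order, with ratios of 0.93, 0.85 and 1.16. Of 11 marker lists, 3 had the same order over the runs in all 3 subsets by their mean log2 level, those of cDC1, neutrophils and natural killer cells. In runs 1, 2 and 3 the neutrophil markers were at 0.80, 1.13 and 1.73 in cDC1, at 2.83, 4.97 and 5.38 in cDC2 and at 0.97, 1.28 and 1.83 in mcDC. Natural killer cell markers were at 2.30, 2.34 and 2.59, at 1.85, 2.06 and 2.26, and at 3.25, 3.85 and 4.42. Erythroid and platelet markers were also lowest in the first run, at 0.36 to 0.42 against 0.82 to 2.50 in the other libraries. The part of these cells in the members' levels was not tested.

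**Figure D4:**
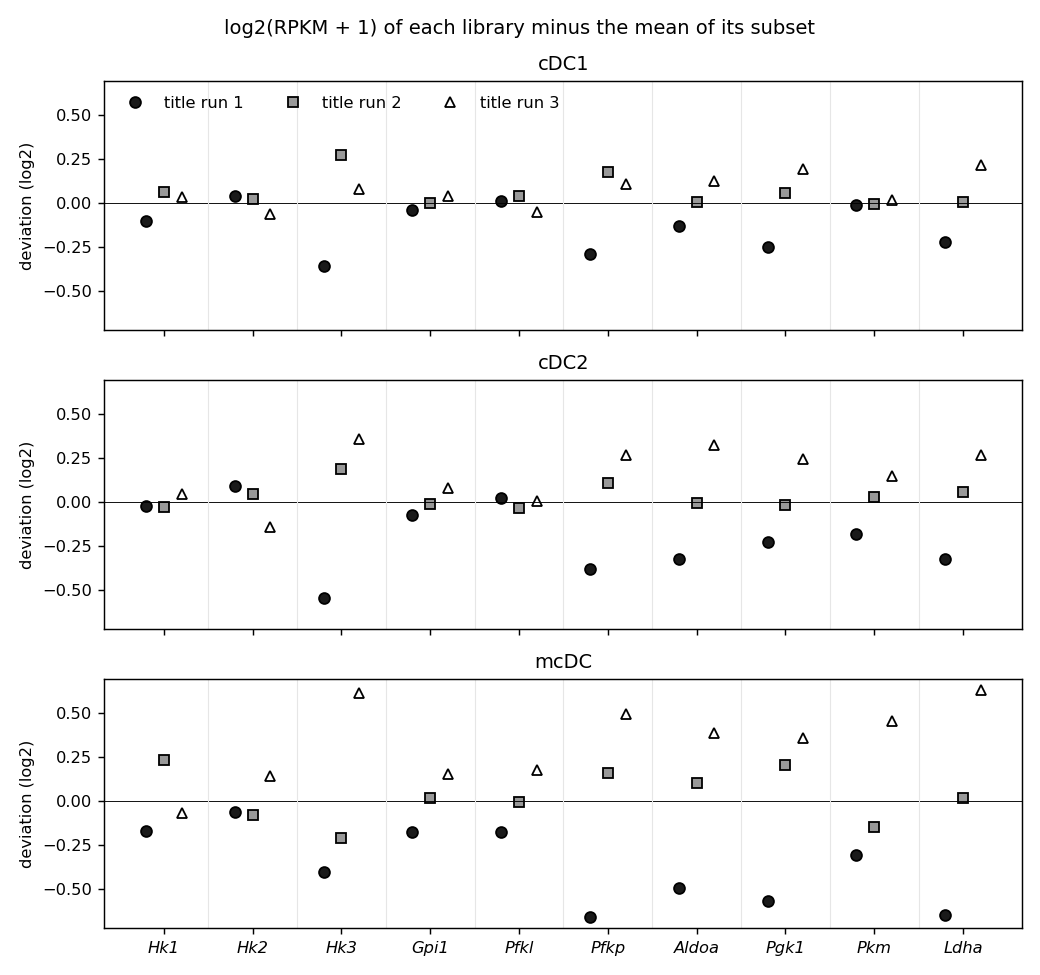
Deviation of log2(RPKM + 1) from the mean of the subset (vertical axes) for each member (horizontal axis) in cDC1, cDC2 and mcDC (panels). Black circles, grey squares and white triangles are title runs 1, 2 and 3. For 7 members the library of run 1 is the lowest in every panel.

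Among the other glycolytic genes, 2 enolases differed in opposite directions. Of 13 further glycolytic genes tested, 2 were higher and 1 lower in cDC1 than in cDC2 (median log2 difference 0.40), 1 was higher and 1 lower in mcDC than in cDC1, and 1 was higher in mcDC than in cDC2. Without mcDC replicate 3 these counts were 3 and 2, 2 and 2, and 1. The counts of this list and of those below stand beside 19.6%, 15.4% and 3.66% of all genes tested that passed in the same order. Without mcDC replicate 3 these shares were 29.4%, 22.0% and 4.37%. Eno2, the enolase best known from neurons, had 21.3, 23.1 and 19.5 RPKM in cDC1, 3.54, 2.79 and 3.10 in cDC2, with 7.60, 6.49 and 6.94 in mcDC. The 3 subsets were fully separated, and Eno2 was 6.78-fold higher in cDC1 than in cDC2 (limma, adjusted p = 5.3e-06) and 2.23-fold higher in mcDC than in cDC2 (adjusted p = 0.0074). Eno3, the muscle-type enolase, went the other way, at 47.0 ± 3.75 in cDC1, 102 ± 9.99 in cDC2 and 71.1 ± 12.6 in mcDC (SD, n = 3), with a log2 difference of -1.10 between cDC1 and cDC2 (limma, adjusted p = 0.00067). Eno1 was not analysed here, so no shares of enolase are given. Pgam2, the muscle-type phosphoglycerate mutase, was 2.42-fold higher in cDC1 than in cDC2 (limma, adjusted p = 0.011). Gapdh, at 161 ± 20.4, 165 ± 17.4 and 180 ± 46.7, and Pgam1, at 95.9 ± 11.1, 62.5 ± 10.5 and 86.7 ± 32.1, did not pass in any comparison.

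Genes whose products make and remove fructose 2,6-bisphosphate, the strongest activator of phosphofructokinase, differed in RNA level between subsets. Of 5 genes, 2 were higher and 1 lower in cDC1 than in cDC2, and the same 3 passed in the opposite direction in mcDC against cDC1. Pfkfb3, whose product strongly favours synthesis, had 139, 148 and 122 RPKM in cDC1, 55.2, 35.6 and 35.4 in cDC2, with 73.7, 47.7 and 37.6 in mcDC. It was 3.23-fold higher in cDC1 than in cDC2 (limma, adjusted p = 0.0010). Pfkfb4, another bifunctional enzyme of the family, was 5.65-fold higher in cDC2 than in cDC1, at 20.1 ± 4.19 against 3.56 ± 0.35 RPKM (SD, n = 3; limma, adjusted p = 2.1e-05), with 12.0 ± 0.73 in mcDC. Pfkfb1 was low, at 3.74 ± 0.91 in cDC1 and 1.71 ± 0.28 in cDC2. No gene of this list passed in mcDC against cDC2 by limma, where 1 had an unadjusted p under 0.05, and 1, Pfkfb4, was lower with median-of-ratios scaling.

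Several transporters were lower in cDC1. Of 9 hexose and lactate transport genes tested, 4 were lower and 0 higher in cDC1 than in cDC2, a median log2 difference of -0.60, and 2 were higher in mcDC than in cDC1. Without mcDC replicate 3, 5 were lower and 1 was higher in cDC1 than in cDC2, the last being the lactate carrier Slc16a1, named after its values were seen. Slc16a3, the lactate exporter MCT4, had 3.03, 1.72 and 2.84 RPKM in cDC1, 15.8, 14.8 and 18.5 in cDC2, with 5.84, 5.65 and 4.07 in mcDC. It separated all 3 subsets, being 6.47-fold higher in cDC2 than in cDC1 (limma, adjusted p = 5.3e-05) and 3.16-fold higher in cDC2 than in mcDC (adjusted p = 0.0051). Slc2a3, the high-affinity glucose transporter GLUT3, had 16.0, 4.08 and 4.64 RPKM in cDC1, 46.5, 36.9 and 27.3 in cDC2, with 43.8, 26.0 and 18.4 in mcDC. It was 4.48-fold higher in cDC2 than in cDC1 (limma, adjusted p = 0.0074) and 3.57-fold higher in mcDC than in cDC1 (adjusted p = 0.024). The cDC1 library with the most Slc2a3 was replicate 1, the one with the highest mean log2 level of cDC2 markers. Without it the 2 differences were 8.46-fold and 6.76-fold. Bsg, the chaperone of lactate carriers, did not pass in any comparison.

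**Figure D5:**
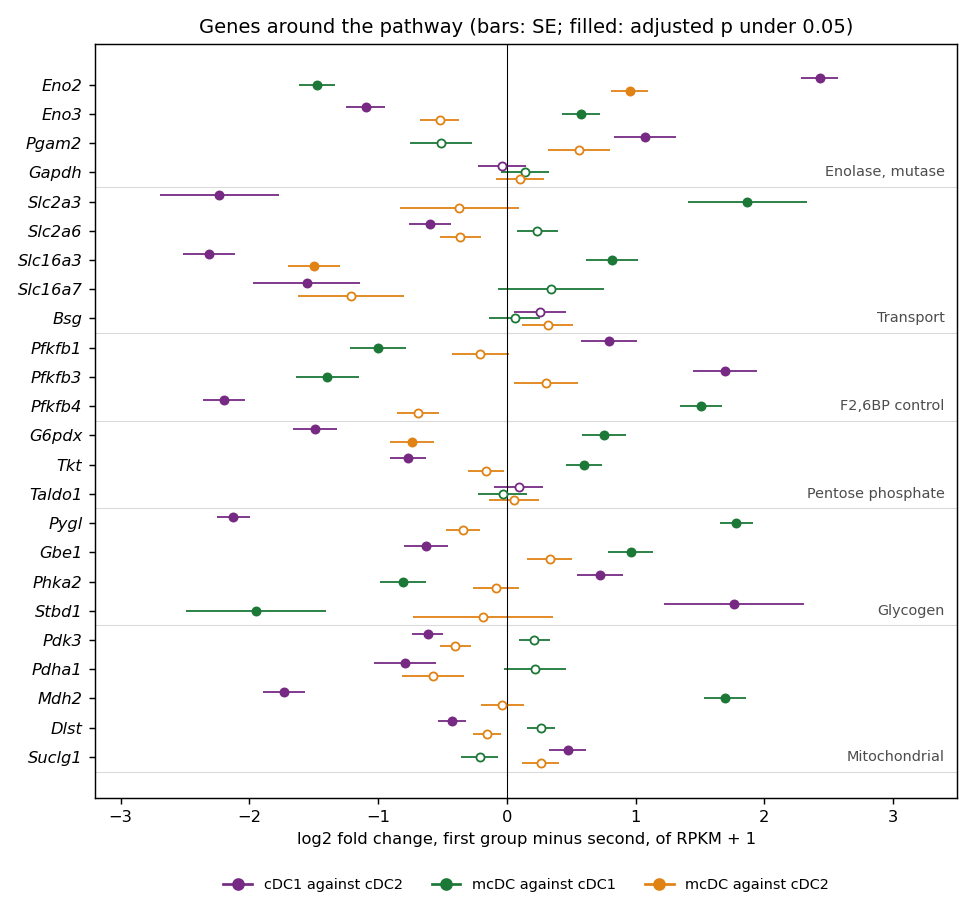
Log2 fold change of RPKM + 1, first group minus second (horizontal axis), for named genes around the pathway (vertical axis) in 3 comparisons by colour, grouped by function. Bars are standard errors and filled circles mark adjusted p under 0.05 by limma. Eno2 and Pfkfb3 lie to the right and Slc16a3, Slc2a3, Pfkfb4, Pygl and Mdh2 to the left in cDC1 against cDC2.

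Branches that leave glycolysis from its upper part differed in a few enzymes. Of 8 pentose phosphate genes, 2 were lower in cDC1 than in cDC2 and the same 2 were higher in mcDC than in cDC1, 1 of them with median-of-ratios scaling. G6pdx, which diverts glucose 6-phosphate and yields NADPH, had 17.6, 15.0 and 18.5 RPKM in cDC1, 41.4, 50.8 and 57.5 in cDC2, with 25.2, 36.2 and 27.5 in mcDC (limma, adjusted p = 0.00025 for cDC1 against cDC2). It was the 1 gene of this list that passed in mcDC against cDC2, lower in mcDC (limma, adjusted p = 0.049). That call was kept in 5 of 19 other settings. Tkt was at 88.8 ± 4.11, 152 ± 15.6 and 136 ± 23.0 (SD, n = 3), and Taldo1, the enzyme next to it, at 413 ± 57.1, 386 ± 33.7 and 410 ± 105, passed in no comparison. Of 17 genes of glycogen metabolism, 3 were higher and 4 lower in cDC1 than in cDC2. Pygl, a glycogen phosphorylase, had 8.63, 9.36 and 6.76 RPKM in cDC1, 37.6, 41.5 and 38.2 in cDC2, with 30.3, 29.5 and 31.9 in mcDC, and was 4.74-fold higher in cDC2 than in cDC1 (limma, adjusted p = 7.2e-06). Neutrophil markers were higher in cDC2, as given above, and in mcDC, where Pygl was 3.71-fold higher than in cDC1 (limma, adjusted p = 4.2e-05), their summed RPKM was 40.9 to 56.7. By summed RPKM, markers of monocytes and macrophages were lowest in cDC1 and highest in cDC2. The sums were 243 to 350 in cDC1, 704 to 996 in mcDC and 1158 to 2165 in cDC2. Lyz2, with means of 96.0, 211 and 1112 RPKM in the same order, was the largest part of the cDC2 sums. Other markers were highest in mcDC, such as C1qa at 10.6, 64.9 and 14.4 and Vcam1 at 25.4, 61.3 and 7.66. By mean log2 level the order was not kept. That level was 2.89 to 3.49 in cDC1, 4.59 to 4.95 in mcDC and 3.95 to 4.62 in cDC2. Of 15 markers tested, 11 were higher and 0 lower in mcDC than in cDC1. In cDC1 against cDC2, 1 was higher and 7 lower, and in mcDC against cDC2, 4 were higher and 2 lower. The part of neutrophils, monocytes and macrophages in the levels of Pygl, Slc2a3, G6pdx, Ddit4 and the other genes named was not tested.

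The mitochondrial continuation of the pathway differed in few genes. Of 14 genes for pyruvate entry, 2 were lower in cDC1 than in cDC2, Pdk3 and Pdha1, and none passed in the other comparisons by limma or voom, where 1 and 2 had an unadjusted p under 0.05 in mcDC against cDC1 and against cDC2. Of 18 genes of the tricarboxylic acid cycle, 1 was higher and 2 lower in cDC1 than in cDC2, and 1 was higher in mcDC than in cDC1. Of all genes tested, 19.6% passed in cDC1 against cDC2 and 15.4% in mcDC against cDC1. Mdh2, the mitochondrial malate dehydrogenase, had 210, 168 and 169 RPKM in cDC1, 712, 570 and 540 in cDC2, with 691, 531 and 556 in mcDC. It was 3.34-fold higher in cDC2 than in cDC1 (limma, adjusted p = 8.9e-05) and 3.26-fold higher in mcDC than in cDC1 (adjusted p = 0.00019). Of 12 genes of serine synthesis, hexosamine synthesis and the glycerol phosphate shuttle, 2 were higher and 1 lower in cDC1 than in cDC2. Phgdh, which opens serine synthesis from 3-phosphoglycerate, was at 14.0 ± 4.96 RPKM in mcDC and 3.55 ± 0.55 in cDC2 (SD, n = 3; limma, adjusted p = 0.018). Of 2 genes of gluconeogenesis, 0 passed in any comparison by limma or by voom, and 0 had an unadjusted p under 0.05.

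Regulators that act on these enzymes were listed as well. Of 13 genes of the hypoxia and MYC systems, 2 were higher and 1 lower in cDC1 than in cDC2, and 2 were higher and 2 lower in mcDC than in cDC1. In mcDC against cDC2, 0 passed by limma or voom, where 2 had an unadjusted p under 0.05. Of all genes tested, 19.6%, 15.4% and 3.66% passed by limma in the same order. Vhl, which marks hypoxia-inducible factors for degradation, had 45.0, 41.7 and 39.5 RPKM in cDC1, 19.6, 18.1 and 21.0 in cDC2, with 21.2, 23.1 and 23.1 in mcDC (limma, adjusted p = 0.00014 for cDC1 against cDC2). Myc had 9.06, 9.56 and 10.1 RPKM in cDC1, 11.5, 14.0 and 15.0 in cDC2, with 17.9, 20.4 and 18.6 in mcDC, and was 1.98-fold higher in mcDC than in cDC1 (limma, adjusted p = 0.0018). Its difference between cDC1 and cDC2, -0.45 on the log2 scale, passed narrowly (adjusted p = 0.044) and in 9 of 19 other settings. Mxd1, which competes with MYC for MAX, was at 56.8 ± 8.06, 19.5 ± 5.89 and 27.1 ± 8.72 in cDC1, cDC2 and mcDC (SD, n = 3).

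Of 18 other hypoxia-inducible genes, 1 was higher and 2 lower in cDC1 than in cDC2, and 4 were higher and 1 lower in mcDC than in cDC1. Of all genes tested, 19.6% and 15.4% passed in these comparisons. Without mcDC replicate 3 the counts in cDC1 against cDC2 became 2 higher and 4 lower, where 29.4% of all genes passed. In mcDC against cDC1 they became 3 higher and 1 lower, where 22.0% of all genes passed. Of the genes higher in mcDC than in cDC1, Egln3, Vegfa and Adm were low. Their means were 1.84, 1.79 and 3.17 RPKM in mcDC and 0.24, 0.32 and 0.67 in cDC1. The call of Egln3 was kept in 6 of 15 other settings. Ddit4, an inhibitor of mTORC1, had 6.90, 6.62 and 5.45 RPKM in cDC1, 41.1, 68.3 and 60.04 in cDC2, with 24.8, 43.5 and 42.2 in mcDC. It was 8.93-fold higher in cDC2 than in cDC1 (limma, adjusted p = 3.8e-05). Plin2, a lipid droplet protein, went the other way, at 76.5 ± 7.23, 20.5 ± 6.31 and 33.96 ± 10.5 in the same order (SD, n = 3; limma, adjusted p = 0.00075). Egln3, Pdk1 and Slc2a1 are also in other lists.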

How the data were processed

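RNA sequencing of 9 splenic dendritic cell libraries was used, 3 each of cDC1, cDC2 and mcDC. The authors deposited RPKM values per gene in 1 table and in 8 files of single libraries, which held the same values as their columns. The unit was read from the steps between values, since the file headers name none. The submitters' processing notes name the build mm8, the library kit was directional per the labels' protocols, and the aligner, counting, use of strand and annotation are not given in the sources used here. Whole reads were recovered for 100% of nonzero values, within 0.001 of a whole number. There were 0 columns of other samples.

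All 3 groups entered 1 linear model of log2(RPKM + 1), fitted in limma 3.58.1 (R 4.3.3) with a mean-dependent prior variance over 11971 genes above 1 RPKM in at least 2 libraries, with Benjamini-Hochberg adjustment within each comparison. Fold changes on this scale understate ratios of low genes, and folds in the text are ratios of mean RPKM. Members passing the filter numbered 10 of 10. Shares were tested by exact permutation in scipy 1.17.1. The members and lists were chosen with earlier results of these data known. All members are named. Other genes could be named from 11 pathway lists, for each comparison from the 4 passing genes with the largest change and the 2 others with the highest RPKM. Of 157 listed names 138 were in the table. Gene names were also looked up in RefSeq by gene number (14847 found). The model was repeated without each library, for each pair of groups alone, with the title run as a block, without the variance trend, unfiltered, with a 5 RPKM filter, with a pseudocount of 0.1 and after quantile normalization. Median-of-ratios scaling, voom and the block without mcDC replicate 3 were added after the data were seen.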

Additional observations from a re-analysis of the deposited data

How the results depend on the processing

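The 5 calls of members kept their side of the threshold in 69 of 95 alternatives, lost it in 26 and reversed in 0, and the 56 calls of named pathway genes kept it in 889 of 1054, lost it in 165 and reversed in 0. Leaving out 1 library in turn gave 1547 to 3467 called genes and 1 to 6 called members in cDC1 against cDC2, 951 to 2601 and 1 to 2 in mcDC against cDC1, and 158 to 896 and 0 to 1 in mcDC against cDC2. Fitting the 2 groups alone gave 3731, 1096 and 251 genes, in that order of comparisons, with 6 members in cDC1 against cDC2 and 1 in mcDC against cDC1. Quantile normalization, no trend, median-of-ratios scaling and voom each called 1 member in mcDC against cDC1. All 3 subsets share 1 estimate of the spread, so an mcDC library can move a call in cDC1 against cDC2. Without mcDC replicate 3 the log2 differences of Hk1 and Hk2 in that comparison stayed at -0.39 and -0.37. Their SE went from 0.134 to 0.122 and from 0.118 to 0.097. The median SE over all genes went from 0.209 to 0.156. The cause of the other shifts was not tested.

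The title runs were checked as a pairing. Deviations of libraries of the same run from their group means correlated at 0.07 to 0.55 over 8358 genes, other pairs at -0.55 to 0.01, and 9 of 9 libraries correlated best with their own run, but 8 of 9 same-run pairs passed 0.1, so the runs were not taken as pairs. The title run as a replicate block called 2942, 2474 and 773 genes, and it added calls of 3 members, Hk1 in cDC1 against cDC2 (adjusted p = 0.0499), Pgk1 in mcDC against cDC1 (0.015) and Pfkp, the 1 member called in mcDC against cDC2 (0.017). The block without mcDC replicate 3 called 4274, 3003 and 718 genes and 7, 4 and 1 members.

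No member with a reversed sign was called. With quantile normalization Gpi1 in cDC1 against cDC2 was at 0.0031, Pfkl in mcDC against cDC1 at -0.11 and Hk2 in mcDC against cDC2 at -0.0099. With median-of-ratios scaling Pfkl was at -0.13 and Hk2 at -0.059, with voom at -0.15 and -0.062, and with the block without mcDC replicate 3 at -0.098 and -0.071, where Hk1 in mcDC against cDC2 was at 0.023. Leaving out 1 library at a time moved the log2 difference of Aldoa in cDC1 against cDC2 from -0.092 to 0.23, and in mcDC against cDC1 that of Pfkl from -0.087 to 0.091, of Aldoa from -0.40 to 0.044 and of Ldha from -0.34 to 0.30. In mcDC against cDC2 it moved Hk1 from -0.15 to 0.053, Hk2 from -0.021 to 0.096, Aldoa from -0.32 to 0.11 and Pkm from -0.29 to 0.086. The depth of mcDC replicates 2 and 3 limits low genes more than these enzymes.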

Other observations

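Pklr, the pyruvate kinase of liver and red cells, had 0, 2.78 and 3.496 RPKM in cDC1, 0, 0.40 and 0.32 in cDC2, with 0.13, 1.03 and 3.33 in mcDC, for replicates 1, 2 and 3. A count of 0 allowed up to 3 reads, 0.097 RPKM in cDC1 replicate 1 and 0.12 in cDC2 replicate 1. The mean log2 level of 8 erythroid and platelet markers was 0.42, 2.42 and 2.41 in cDC1, 0.36, 0.90 and 0.82 in cDC2, with 0.36, 2.50 and 1.95 in mcDC, and 0 of 8 passed in any comparison by limma or voom, with 2, 0 and 1 at an unadjusted p under 0.05 in cDC1 against cDC2, mcDC against cDC1 and mcDC against cDC2. Natural killer cell markers had a summed RPKM of 66.6 to 176 in mcDC, above 33.7 to 53.7 in cDC1 and 25.2 to 41.1 in cDC2. Of 14 cell cycle genes, 0 passed in any comparison by limma, with 1, 1 and 2 at an unadjusted p under 0.05 in the same order and 1 called by voom in cDC1 against cDC2, and their summed RPKM was 265 to 360 in cDC1, 275 to 339 in cDC2 and 300 to 392 in mcDC.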
